A study of Mus musculus with 12 samples.

Results

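The signal transducer and activator of transcription (STAT) genes Stat2, Stat3, Stat4, Stat5a, Stat5b and Stat6 were followed in cultured OPCs, the oligodendrocyte precursor cells from which the myelin-forming oligodendrocytes of the mouse brain arise. They were taken by name as 6 of the 55536 genes in the transcript tables, and each gene was described as a whole and by its annotated transcripts. OPCs from the brains of mouse pups at P4 to P6, several brains pooled per experiment, were purified as Sox10GFP+ cells by sorting or as CD140a+ cells on magnetic beads. They were then grown in proliferation medium with PDGFaa and bFGF. The GFP comes from a Sox10-driven Cre line with a loxP reporter, so it marks every cell that has expressed Sox10, later oligodendrocytes included. Control cultures (Ctr) had no added agent. Dexa cultures received dexamethasone, a synthetic glucocorticoid, at 1 µM, and IFNg cultures received interferon-γ at 100 ng/ml, both for 48 h. Each group had 4 libraries of total RNA, numbered 1 to 4 and drawn from different litters. All 12 samples also carry the mouse model label EAE, although the cells were cultured from pups.

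STAT proteins lie latent in the cytoplasm until a cytokine receptor is engaged. Janus kinases (JAKs) bound to the receptor then phosphorylate a tyrosine on the STAT, which pairs with another STAT, enters the nucleus and binds DNA. STAT2 acts mostly with IRF9 at interferon-stimulated response elements, while dimers of most other STATs bind palindromic gamma-activated sites. SOCS proteins, themselves products of STAT target genes, switch the receptors off again.

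The 6 genes lie on 3 chromosomes of GRCm38 (annotation GENCODE M21). Stat5b (chr11, minus strand) and Stat5a (chr11, plus strand) are divergent neighbours 8626 bases apart, and the 3′ ends of Stat5a and Stat3 (chr11, minus strand) overlap by 72 bases. Stat2 and Stat6 are both on the plus strand of chr10, and Stat4 is on the plus strand of chr1. Stat5a and Stat5b are near copies, with 88.8% identical positions in an alignment of their coding sequences, whereas the other 14 pairs lay between 46.6% and 58.3%. Of the 7293 distinct stretches of 31 bases in Stat5a transcripts, 836 also occur in Stat5b transcripts, where they are 15.1% of the 5535, and reads from those stretches can be assigned to either gene only by estimate. No other pair shared more than 9 such stretches on the same strand.

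Promoters are shown first for Stat2 and Stat3, the members with the largest fold changes, and for the Stat4 start that held a motif, chosen after the matches were seen. The RefSeq promoter table (GRCm38.p6, 250 bases before to 50 after each start) holds 9 promoters of the 6 genes. The core of the interferon-stimulated response element, GAAA followed after 2 bases by GAAA, was found on either strand in 2 of the 9 and in 3.43% of all 32817 promoters. The gamma-activated site TTCNNNGAA, which is its own reverse complement, was found in 0 of the 9 and in 8.29% of all promoters. The same letters with 4 bases between TTC and GAA, the spacing known for STAT6, were found in 1 of the 9 and in 6.94% of all. The 250 bases before the start are printed for Stat2 (chr10:128270248-128270497, plus strand), Stat3 (chr11:100939541-100939790, minus strand) and the second Stat4 start (chr1:52007990-52008239, plus strand), with matches to any of the 3 motifs in capitals.
Stat2: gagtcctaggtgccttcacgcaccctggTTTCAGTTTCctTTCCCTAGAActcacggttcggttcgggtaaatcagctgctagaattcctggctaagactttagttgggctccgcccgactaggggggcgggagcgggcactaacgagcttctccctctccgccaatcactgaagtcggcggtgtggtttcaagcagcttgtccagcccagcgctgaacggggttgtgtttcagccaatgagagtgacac
Stat3: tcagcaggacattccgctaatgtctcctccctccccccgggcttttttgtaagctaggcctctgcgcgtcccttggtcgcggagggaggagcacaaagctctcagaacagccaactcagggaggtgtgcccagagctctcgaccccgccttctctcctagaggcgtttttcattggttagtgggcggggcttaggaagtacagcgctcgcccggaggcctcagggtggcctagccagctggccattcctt
Stat4: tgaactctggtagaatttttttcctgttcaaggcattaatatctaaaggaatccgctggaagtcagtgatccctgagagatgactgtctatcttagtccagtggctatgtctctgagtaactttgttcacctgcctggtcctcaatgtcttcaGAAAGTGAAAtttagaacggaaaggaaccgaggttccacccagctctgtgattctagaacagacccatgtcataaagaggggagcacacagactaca
The Stat2 window held 2 matches side by side, TTTCAGTTTC at chr10:128270276-128270285 and TTCCCTAGAA at chr10:128270288-128270297. The Stat4 window held GAAAGTGAAA at chr1:52008143-52008152, and the Stat3 window held none of the 3. A match is a string of letters and not a measured binding site.

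The tables hold estimated reads per transcript (NumReads of Salmon), which were summed per gene, rounded and divided by a size factor of each library to give normalized counts. The 11 complete libraries held 19209063 to 52074652 reads in genes. The table of Dexa replicate 3 ends part-way, after 33.7% of the transcripts, but lists all 6 genes whole, so its values are given here and the DESeq2 fit, blocked by replicate number, was made without it. OPC markers were present in every library. Over the 8 OPC markers fixed (Pdgfra, Cspg4, Sox10, Olig1, Olig2, C1ql1, Lhfpl3 and Ptprz1), summed normalized counts ranged from 174200 to 298394 in Ctr, from 196978 to 318646 in Dexa and from 125635 to 263522 in IFNg, and 5 of the 8 were lower in IFNg than in Ctr (1 without the block), where 14.1% of all genes tested were called lower (4.83% without the block). Of the microglia and macrophage markers, DESeq2 and edgeR called 0 of the 3 tested in IFNg versus Ctr (0 also at an unadjusted p under 0.05), and Aif1, Cx3cr1, Itgam, Trem2 and C1qa had at most 6 reads in any library. The 6 T and NK cell markers summed to at most 11.9 in any library, and Ncr1 was at 0 throughout. Astrocyte markers were also detected, with all 8 tested and sums of 18998 to 51569.6 in Ctr, 39259 to 66209 in Dexa and 35581 to 52294 in IFNg, and 4 rose and 3 fell with IFN-γ (2 called without the block). Of the 4 neuronal markers tested 2 rose and 1 fell with IFN-γ (2 called without the block), and of the 3 endothelial markers tested 1 fell (0 called without the block). Of all genes tested, 15.2% rose and 14.1% fell with IFN-γ (8.02% and 4.83% without the block). The part of other cells in the values that follow was not tested, and in bulk RNA fewer cells of a type and less RNA per cell cannot be told apart.

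At the level of whole genes, IFN-γ raised Stat2 and Stat3 most, raised Stat5a and Stat5b less, and left no detectable change in Stat6, while Stat4 was barely detected in any group. Of the 5 members that passed the count filter (10 or more counts in 4 or more libraries), 4 were called higher in IFNg than in Ctr at an adjusted p under 0.05, where 15.2% of the 17919 genes tested were called higher and 29.2% in either direction (8.02% and 12.8% without the block). In these 4 the IFNg and Ctr libraries did not overlap, which held upwards for 8.66% of genes tested. Each of the 5 had at least 20 estimated reads in every library, so none passed the filter through 1 group alone. Stat4 did not pass.

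Stat2 encodes the partner of IRF9 in the interferon-stimulated complex. In Ctr its normalized counts were 421, 398, 495 and 510.4 in replicates 1 to 4. In Dexa they were 458, 418, 502 and 447, all inside the Ctr range. In IFNg they were 3772, 4390.22, 4829 and 4769. Every IFNg library was thus far above every library of the other groups, and the ratio of the paired libraries lay between 8.95 and 11.04. The mean rose from 456 ± 54.9 (SD, n = 4) to 4440.03 ± 486 (SD, n = 4), a log2 fold change of 3.29 ± 0.09 (SE; adjusted p = 8.13e-297), or 9.76-fold with a 95% interval of 8.65 to 11.01. It was the 275th highest of the 17919 fold changes.

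Stat3, the STAT of IL-6-type cytokines and of reactive gliosis, was already abundant in Ctr OPCs. Its normalized counts in Ctr were 5535, 6831, 5809 and 5502. In IFNg they were 18731, 21977.5, 21010.3 and 19280.0, with no overlap with either other group, and the paired ratio lay between 3.22 and 3.62. The log2 fold change was 1.78 ± 0.07 (SE; adjusted p = 2.27e-144), or 3.43-fold (95% interval 3.12 to 3.77), and its interval did not overlap that of Stat2. In Dexa the counts were 5835, 8045, 6567 and 5736, above the Ctr library of the same number in 4 of 4 pairs, by ratios of 1.04 to 1.18.

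Stat5a and Stat5b mediate growth hormone, prolactin and many interleukin signals. Stat5b was the more abundant of the pair, with normalized counts of 1609, 1654, 1610.4 and 1570.2 in Ctr. The IFNg libraries held 2220 (2219.71), 2119, 2174 and 1958, all above the Ctr libraries and above the highest Dexa library, replicate 3 at 1936. The log2 fold change of Stat5b was 0.39 ± 0.07 (SE; adjusted p = 6.90e-07), or 1.31-fold (95% interval 1.19 to 1.45), a small change between groups whose coefficients of variation were 2.13% in Ctr and 5.39% in IFNg. Stat5a was much lower, at 44.98, 57.0, 58.5 and 47.8 in Ctr and 103, 79.3, 111 and 113 in IFNg. The lowest IFNg library, replicate 2, was still above the highest library of either other group. Its log2 fold change was 0.96 ± 0.23 (SE; adjusted p = 2.67e-04), or 1.95-fold with a wide 95% interval of 1.42 to 2.67, and the paired ratios ran from 1.39 in replicate 2 to 2.36. The intervals of Stat5a and Stat5b overlapped, and where the genes share sequence either count is an estimate.

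Stat6, the STAT of IL-4 and IL-13, was low in every group. Its normalized counts were 46.8, 40.9, 22.04 and 31.5 in Ctr, 33.5, 47.2, 54.4 and 34.9 in Dexa, and 60.6, 43.4, 31.5 and 25.7 in IFNg. The groups overlapped over most of their range. The log2 fold change in IFNg was 0.20 ± 0.30 (SE; adjusted p = 0.704), with a 95% interval from -0.40 to 0.79, so neither a fall to 0.759-fold nor a rise to 1.73-fold could be told from no change.

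Stat4, which carries IL-12 signals in lymphocytes, had 0 estimated reads in 8 of the 12 libraries and at most 4.29 in any. Among the Ctr libraries replicates 1 and 2 held 3 and 4.29 reads, in Dexa replicate 2 held 1.37, and in IFNg replicate 1 held 2.12. A library with 0 reads allows up to 3 by counting error alone, so no fold is given.

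**Figure D1:**
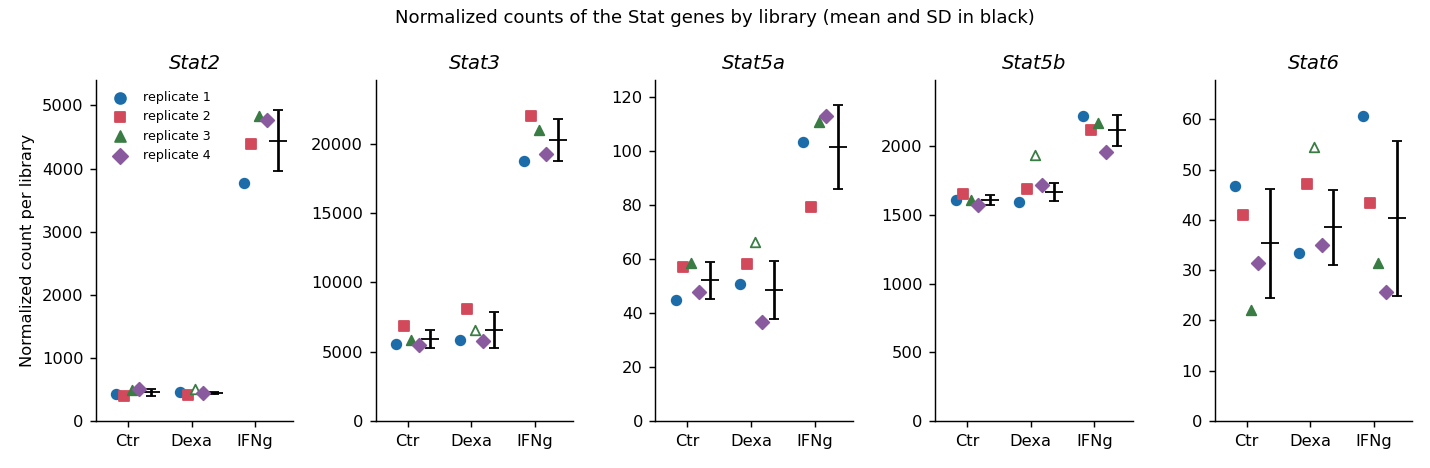
Normalized counts of Stat2, Stat3, Stat5a, Stat5b and Stat6 (linear axes from 0), one point per library, by group. Colours and shapes mark the replicate number, the open triangle is Dexa replicate 3, which is not in the fit, and black bars give the mean and SD of the fitted libraries. The IFNg libraries stand above all others for Stat2, Stat3, Stat5a and Stat5b, and the groups overlap for Stat6.

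Against Ctr, dexamethasone called 0 of the 5 tested members by DESeq2, where 2.57% of all genes tested were called (2.05% higher), and 0.547% without the block. At an unadjusted p under 0.05 the count was also 0, and edgeR with the block called 0, where it called 1.57% of all genes. The log2 fold changes were 0.01 ± 0.11 for Stat2, 0.14 ± 0.08 for Stat3, -0.03 ± 0.28 for Stat5a, 0.06 ± 0.08 for Stat5b and 0.01 ± 0.34 for Stat6 (SE). The 95% intervals limit the change of Stat2 to between 0.870-fold and 1.16-fold and that of Stat3 to between 0.991-fold and 1.22-fold, while for Stat6 they reach from 0.634-fold to 1.61-fold. With all 12 libraries, over the 6319 genes tested among those that Dexa replicate 3 lists whole, the change of Stat3 was 0.14 ± 0.06 (SE; unadjusted p = 0.0323, adjusted p = 0.334), where 3.59% of those genes were called.

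The direct comparison of the treatments gave values close to those against Ctr. It shares the IFNg libraries with the first comparison and the Dexa libraries with the second. Of the 5 members, 4 were called higher in IFNg than in Dexa, where 16.2% of genes tested were called higher and 31.6% either way (7.66% higher without the block). Those 4 also did not overlap between the groups, which held upwards for 11.2% of genes tested. The log2 fold changes were 3.28 ± 0.10 for Stat2 (adjusted p = 5.52e-220), 1.64 ± 0.08 for Stat3 (2.79e-97), 0.99 ± 0.27 for Stat5a (0.00149) and 0.34 ± 0.08 for Stat5b (2.57e-04). For Stat6 it was 0.18 ± 0.34 (0.750). Without Dexa replicate 4, the Dexa library with the lowest Stat5a count (36.7), the change of Stat5a was 0.80 with an adjusted p of 0.0584, the highest of a range from 1.53e-04 over the alternatives (0.0334 without IFNg replicate 4, the next highest).

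**Figure D2:**
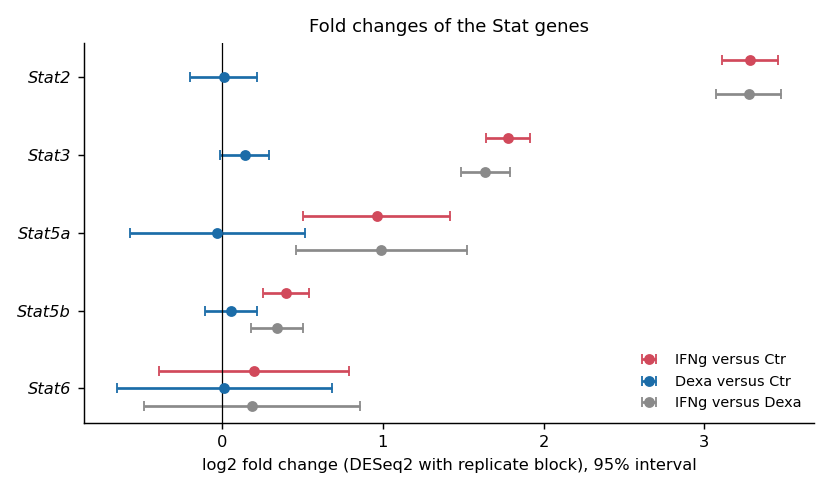
log2 fold changes of the 5 tested members (points) with 95% intervals (bars) from the DESeq2 fit with the replicate block, for 3 comparisons. Stat2 and Stat3 stand furthest from 0 in both comparisons with IFNg, at 3.29 and 1.78 against Ctr, and every Dexa versus Ctr interval includes 0.

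Levels of different genes were compared on the TPM scale, which divides by transcript length. In Ctr, Stat3 came first at 31.5 ± 5.31 TPM (SD, n = 4), followed by Stat5b at 6.57 ± 0.716, Stat2 at 2.76 ± 0.291, Stat5a at 0.287 ± 0.0519, Stat6 at 0.267 ± 0.102 and Stat4 at 0.0101 ± 0.0117. The ranges of neighbours in this order did not overlap over the 4 libraries, except those of Stat5a and Stat6. In Dexa the order was the same but for that pair, with Stat6 at 0.424 ± 0.127 TPM and Stat5a at 0.323 ± 0.116 (SD, n = 4), again overlapping. In IFNg, Stat3 stayed first at 119.8 ± 13.7 TPM, and Stat2 at 31.9 ± 3.26 passed Stat5b at 9.93 ± 0.896 (SD, n = 4), with no overlap between their libraries. Mean TPM of Stat2 in IFNg OPCs (31.9) was thus near that of Stat3 in Ctr OPCs (31.5). As normalized counts per kilobase of effective length, the 2 values were 1539 ± 161 and 1702 ± 159 (SD, n = 4 each). Transcripts without a coding sequence held on average 36.3% of the Stat2 TPM in IFNg and 18.3% of the Stat3 TPM in Ctr. Stat5a in IFNg (0.664 ± 0.117 TPM) also stood clear of Stat6 (0.308 ± 0.177). The median of all genes tested was itself 0.17 higher in IFNg than in Ctr on the log2 TPM scale and -0.02 on the scale of normalized counts. The ratios of mean TPM, 11.6 for Stat2, 3.797 for Stat3, 2.31 for Stat5a and 1.51 for Stat5b, stood above the fitted folds, while that of Stat6 was 1.15, as was its fitted fold.

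**Figure D3:**
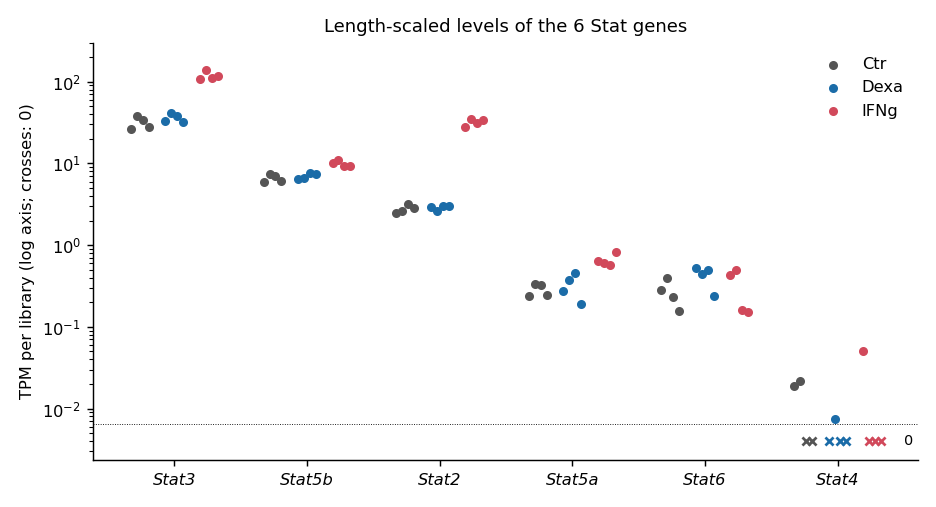
TPM of the 6 Stat genes in each library (log axis), by group, with libraries at 0 as crosses below the dotted line. Stat3 is highest in every group, and Stat2 moves from a mean of 2.76 TPM in Ctr to 31.9 in IFNg, above Stat5b at 9.93.

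The forms of Stat3 kept their proportions while the gene rose. Stat3α (Stat3-203, 770 codons) carries the C-terminal transactivation domain, and in Stat3β (Stat3-202, 722 codons) the use of a later splice acceptor drops 50 bases, shifts the reading frame and ends the protein early. A further form, Stat3-201 (769 codons), lacks 3 bases at another exon boundary and keeps the reading frame. It was counted apart, so the values given for Stat3α are those of Stat3-203 alone. The 3 coding sequences are shown around the points where they part, with the bases that 1 form lacks in capitals, at chr11:100889541-100889590 and chr11:100893074-100893076 (minus strand).
Stat3-203 at the first point: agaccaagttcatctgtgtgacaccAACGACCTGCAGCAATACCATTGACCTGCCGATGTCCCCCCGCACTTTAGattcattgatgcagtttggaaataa
Stat3-202 at the first point: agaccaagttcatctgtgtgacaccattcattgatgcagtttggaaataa
Stat3-203 at the second point: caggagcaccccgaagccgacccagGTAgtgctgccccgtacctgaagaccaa
Stat3-201 at the second point: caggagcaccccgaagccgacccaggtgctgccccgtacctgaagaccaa
Stat3α took 88.5% ± 1.40 of the gene's estimated reads in Ctr, 88.3% ± 0.879 in Dexa and 88.5% ± 1.65 in IFNg (SD, n = 4 each). Stat3-201 took 7.13% ± 1.19, 6.92% ± 1.06 and 7.17% ± 1.14 in the same order. Stat3β, a transcript below 5% of the reads that is described because it is the known short form, took 1.24%, 1.94%, 1.95% and 2.48% in the Ctr libraries, 1.62%, 1.65%, 1.80% and 1.79% in Dexa, and 1.90%, 1.59%, 1.81% and 1.78% in IFNg. The IFNg and Dexa shares of Stat3β all lay inside the Ctr range, although its estimated reads stood between 267 and 371 per library in IFNg and between 74.5 and 214 in Ctr. The 3 transcripts are also annotated with different 3′ ends, at chr11:100885098 for Stat3-202, chr11:100886810 for Stat3-203 and chr11:100888236 for Stat3-201. Their shares therefore do not measure the splice choice alone.

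A usage test asked of each transcript whether it moved against the other transcripts of its gene (edgeR, diffSpliceDGE, with the block). Of 23 member transcripts tested, 0 were called in IFNg versus Ctr, where 0.271% of the 46197 transcripts tested were called, and 0 in Dexa versus Ctr, where 0.143% were. At an unadjusted p under 0.05 there were 0 and 2. Those 2, named after their values were seen, were Stat3-214, a non-coding transcript (unadjusted p = 0.00359, adjusted p = 0.614), and Stat2-202 (0.0122, adjusted p = 1.00). For Stat3β the usage change with IFN-γ was -0.08 on the log2 scale (unadjusted p = 0.819), and for Stat3α it was -0.00021 (unadjusted p = 0.999). Estimates that divide reads among overlapping transcripts carry an error that these counts do not show.

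For the other genes, 1 or 2 full-length transcripts took most reads. Here a transcript was called full-length where its annotated coding sequence was at least 90% of the longest of its gene, so that Stat3β counts among them, short where it was coding but below that, and non-coding otherwise. Stat2-201 (922 codons) took 91.5% ± 5.47 of Stat2 reads in Ctr, 91.3% ± 1.00 in Dexa and 90.7% ± 2.36 in IFNg (SD, n = 4 each). Most reads behind the rise of Stat2 were thus estimated to be of this form, but every non-coding Stat2 transcript, all annotated with a retained intron, rose in estimated reads as well. Stat2-206, the most abundant of them, had 51.0 estimated reads over the Ctr libraries and 643 over the IFNg libraries. The least abundant, Stat2-203, had 5 and 26. By TPM, full-length transcripts took 67.6%, 63.1% and 63.7% of Stat2 in Ctr, Dexa and IFNg. Stat2-202, which has 3 more bases than Stat2-201, was seen in 1 of 4 Ctr libraries, 0 of 4 Dexa libraries and 3 of 4 IFNg libraries, at up to 5.85% of reads. Stat5b-201 took 98.2% ± 1.23, 96.5% ± 2.39 and 98.0% ± 0.382. Stat6-201 took 92.0% ± 7.02, 83.9% ± 11.6 and 96.1% ± 5.59, with most of the rest in Stat6-204, a retained-intron transcript of 0 to 8.75 reads per library. As shares of TPM, which give short transcripts more weight, the full-length form of Stat6 took 67.1%, 47.1% and 82.5%.

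Stat5a was split between Stat5a-202 (793 codons) and Stat5a-203 (797 codons), annotated from different starts, and the split differed widely between libraries of 1 group. Stat5a-203 took 0%, 0%, 45.1% and 25.9% of Stat5a reads in the Ctr libraries, 41.0%, 46.7%, 0% and 3.88e-05% in Dexa, and 35.2%, 0.645%, 27.5% and 9.30% in IFNg. The gene had 20.6 to 104 estimated reads per library. Where short coding forms are annotated, they were nearly absent by estimated reads. Stat2, Stat3 and Stat5b have no annotated transcript of the short class, so their share of 0% follows from the rule and is not a measurement. For Stat6 the short form (Stat6-202) took 0% of the reads in every library. For Stat5a the short forms (Stat5a-204 and Stat5a-206) averaged 0% in Ctr and IFNg and 2.11% ± 2.496 in Dexa (SD, n = 4), from Stat5a-206 alone. That transcript had 2.42 estimated reads in Dexa replicate 2 and 1.61 in Dexa replicate 3. As a share of TPM it averaged 13.6% ± 15.9 of Stat5a in Dexa (SD, n = 4).

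**Figure D4:**
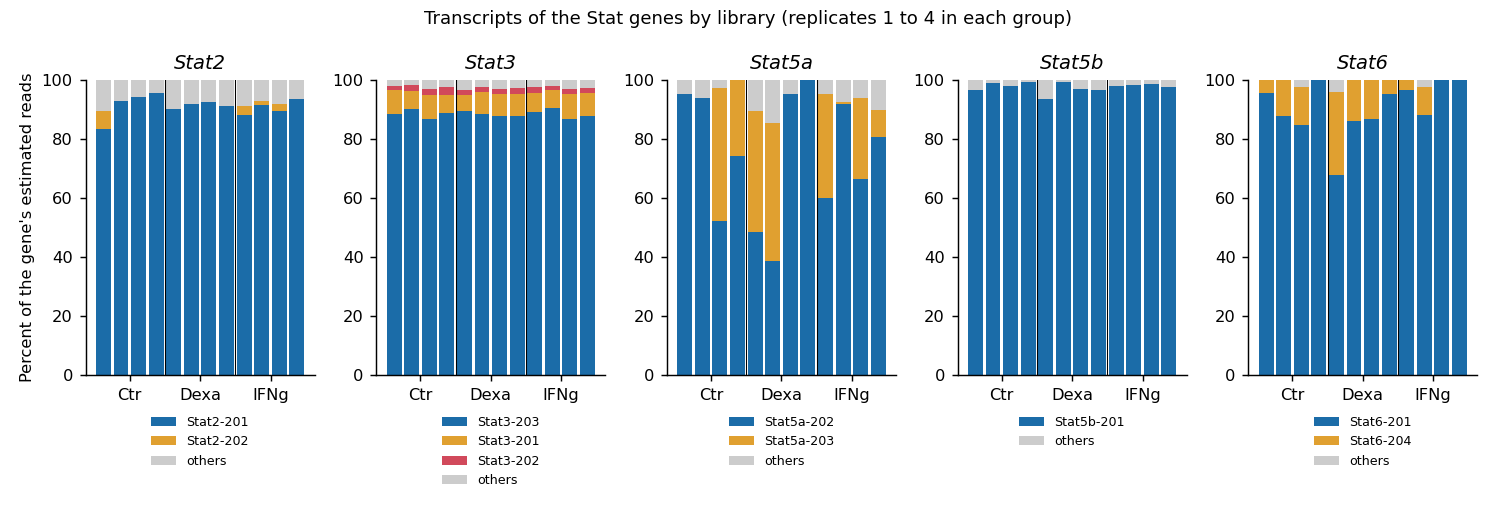
Percent of each gene's estimated reads in its main transcripts, one bar per library (replicates 1 to 4 within each group), axis from 0 to 100. The stacks of Stat2, Stat3 and Stat5b are alike across groups, with Stat3α near 88% throughout, whereas Stat5a varies between libraries of every group.

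The rest of the pathway was read from lists of receptors, kinases, inhibitors and known targets. Usp18, Socs2, Socs3, Cish, Pim1, Osmr and Il4ra each stand on more than 1 of these lists. The counts of the lists are therefore not independent of each other. Of the 19 receptor genes 15 were tested, and 7 rose and 2 fell with IFN-γ (8 called without the block, where Il4ra lost its call), where 15.2% of all genes tested rose and 14.1% fell (8.02% and 4.83% without the block), against a median log2 fold change of 0.17 for the list and -0.01 for all genes tested. Osmr, the oncostatin M receptor that signals through STAT3, rose by 2.87 ± 0.34 (SE, log2; adjusted p = 3.63e-16), and Il6ra, which binds IL-6, by 2.84 ± 0.48 (adjusted p = 3.28e-08), from only 4.89 to 35.7 normalized counts. Il12rb1, a chain of the IL-12 receptor upstream of STAT4, had 0 to 2 reads in the Ctr libraries and 1632, 328, 159 and 185 in IFNg replicates 1 to 4. The Il12rb1 level was thus set largely by replicate 1, but the other IFNg libraries also stood far above Ctr, in cells in which Stat4 itself was barely detected. With at most 5 reads in any Dexa library, Il12rb1 passed the count filter only through the IFNg libraries.

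Of the 4 kinases 3 rose with IFN-γ, and also without the block, where 15.2% of all genes tested rose. Jak2, which sits on the IFN-γ receptor, rose by 1.16 ± 0.08 (SE, log2; adjusted p = 1.26e-49), Jak1 by 0.64 ± 0.07 (adjusted p = 2.18e-20) and Jak3, which serves the common γ chain of interleukin receptors, by 1.81 ± 0.42 (adjusted p = 1.23e-04). Tyk2 changed by 0.17 ± 0.09 (adjusted p = 0.171). Of the 17 inhibitors all were tested, and 5 rose and 0 fell, where 15.2% of all genes tested rose and 29.2% were called either way. These were Usp18, which restrains the type I interferon receptor, at 6.18 ± 0.21 (adjusted p = 7.43e-190), Socs1 at 6.09 ± 0.19 (3.53e-224), Socs2 at 4.46 ± 0.34 (8.55e-38), Socs3 at 1.41 ± 0.11 (4.42e-38) and Cish at 1.33 ± 0.20 (4.42e-10). Socs1, the strongest known brake on IFN-γ signalling, went from 19.4 ± 1.81 normalized counts in Ctr to 1307 ± 51.9 in IFNg (SD, n = 4 each). The list as a whole had a median log2 fold change of 0.10, and the other 12 inhibitors were not called. Socs2, with 5 to 15 reads in the Ctr libraries and 2 to 7 in Dexa, passed the count filter only with the IFNg libraries.

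Among targets, the list of STAT2 and IRF9 had 10 of 11 genes tested, and all 10 rose with IFN-γ (median log2 fold change 4.88), where 15.2% of all genes tested rose. Without the block 9 of the 10 were called, Mx2 having an adjusted p of 0.165. Ifit1, Isg15 and Mx1 had at most 9, 5 and 4 reads in any Ctr library and at most 7, 11 and 2 in Dexa. They passed the count filter only with the IFNg libraries, so their place in the count of risers was set in part by the filter. Irf9, the DNA-binding partner of STAT2, rose by 4.10 ± 0.12 (SE, log2; adjusted p = 4.51e-235), from 214 ± 6.35 to 3687 ± 568 normalized counts (SD, n = 4 each). Ifit3 rose from 12.3 to 5285 normalized counts, Ifit1 from 3.94 to 2416 and Isg15 from 3.43 to 1021. Of the 11 STAT3 targets 10 were tested and 9 rose (median 1.63, against 15.2% of all genes tested that rose), 8 of them without the block, where Junb had an adjusted p of 0.0867. Among the 9 were Gfap at 4.10 ± 0.34 (adjusted p = 2.11e-32) and Serpina3n at 3.70 ± 0.25 (adjusted p = 7.50e-46), both known from reactive astrocytes. Bcl3 had 1 read over the 4 Ctr libraries and 12 to 20 in each IFNg library, and also passed the count filter only through the IFNg libraries. Gfap stands on the astrocyte list as well, whose values are given above.

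Of the 8 STAT5 targets 6 were tested and all 6 rose with IFN-γ (median 1.05), 3 of them without the block, where 15.2% of all genes tested rose with the block and 8.02% without it. Beside Socs2 and Cish, Pim1, a survival kinase, rose by 1.82 ± 0.16 (adjusted p = 2.56e-28). Among the 6, Socs2 passed the count filter only with the IFNg libraries. Bcl2l1, Ccnd1 and Ccnd2 were the targets that lost their call without the block, with adjusted p-values of 0.186, 0.146 and 0.646. The STAT6 list had 1 tested gene of 7, Il4ra, which rose by 0.36 ± 0.13 (adjusted p = 0.0262, or 0.360 without the block). The STAT4 list had 3 tested genes of 6. Furin fell by 0.31 on the log2 scale (adjusted p = 0.0293, or 0.0596 without the block), and Tbx21 went from 0 to 2 reads per Ctr library to 10 to 19 per IFNg library. Tbx21 passed the count filter only through the IFNg libraries.

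With dexamethasone 0 of the 4 kinases, 0 of the 17 inhibitors, 0 of the 10 tested STAT2 and IRF9 targets and 0 of the 3 tested STAT4 targets were called by DESeq2, where 2.57% of all genes tested were called, with 0, 1, 1 and 0 at an unadjusted p under 0.05, and edgeR with the block also called 0 in each. Irf9 changed by -0.01 ± 0.15 (SE, log2; adjusted p = 1.00), Socs1 by -0.31 ± 0.30 (0.926), Socs2 by -0.52 ± 0.54 (0.945), Socs3 by -0.08 ± 0.13 (0.985), Cish by -0.72 ± 0.26 (0.158) and Jak2 by -0.0039 ± 0.09 (1.00). Il4ra, the receptor chain through which IL-4 reaches STAT6, rose by 0.91 ± 0.15 (adjusted p = 8.76e-08), from 153 ± 31.1 (SD, n = 4) to 281 ± 60.0 (SD, n = 3) normalized counts, and was the 1 receptor called. Of the STAT3 targets 3 rose, Gfap by 1.64 ± 0.38 (adjusted p = 0.00119), Cebpd by 1.23 ± 0.20 (1.93e-07) and Serpina3n by 1.23 ± 0.30 (0.00361). Without the block, where 0.508% of genes tested were called higher, 1 of the 3 was called, with adjusted p-values of 0.302 for Gfap, 0.0492 for Cebpd and 1.00 for Serpina3n, and edgeR with the block also called 1. Of the 8 astrocyte markers, Gfap among them, 2 rose with dexamethasone, 0 of them without the block. Of the STAT5 targets Bcl2l1, an anti-apoptotic gene, rose by 0.50 ± 0.09 (adjusted p = 7.33e-06).

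**Figure D5:**
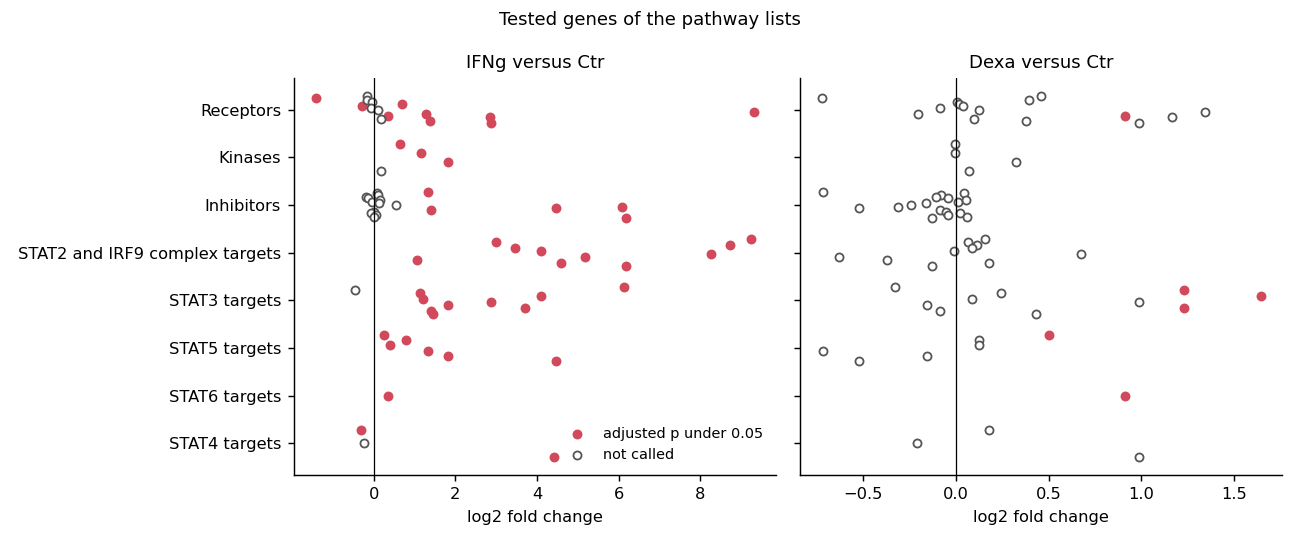
log2 fold changes (DESeq2 with the replicate block) of the tested genes of each pathway list, 1 point per gene, filled where the adjusted p is under 0.05, with different horizontal scales in the panels. With IFN-γ all 10 tested STAT2 and IRF9 targets lie to the right of 0, and with dexamethasone 0 of the 10 are filled. Ifit1, Isg15 and Mx1 among them passed the count filter only with the IFNg libraries. Values of genes with 0 to 2 reads in Ctr, such as Il12rb1, depend on the fit.

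The genes whose log2 normalized counts followed each member most closely over the 11 libraries were taken from 13761 protein-coding genes as a description, since the points share libraries and treatment. They were Tgtp2, Trim21 and Gbp6 for Stat2 (Pearson's r from 0.998 to 0.999), Arid5a, Lgals9 and H2-T22 for Stat3 (0.992 to 0.995), Gimap8, Icam1 and Gm17334 for Stat5a (0.952 to 0.958), and Mei4, Dbnl and Adamts15 for Stat5b (0.978 to 0.985). All 12 had higher fitted values in IFNg than in Ctr. For Stat6 they were Nol12, Actr1b and Szrd1 (0.952 to 0.969), whose log2 fold changes in IFNg were 0.03, 0.04 and 0.10.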

How the data were processed

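Total RNA of 12 mouse OPC cultures was sequenced as paired, stranded libraries. Per the labels and the study's methods, trimmed reads were quantified with Salmon 0.8.2 by the authors, who deposited one table per library with estimated counts (NumReads) and TPM per transcript. Their 3 DESeq2 tables of fold changes and p-values were not used. Whether strand was used in counting is not given in the sources used here. The 141862 transcripts matched GENCODE M21 (GRCm38), and all 41 member transcripts had the reference length. Estimated counts were summed per gene and rounded. DESeq2 1.42.0 (R 4.3.3) was fitted to 17919 genes with at least 10 counts in 4 or more of 11 libraries, with the replicate number as a block, and edgeR 4.0.16 tested transcript usage. Replicates came from different litters, and deviations from group means correlated at 0.404 to 0.722 within a number and -0.614 to 0.495 between numbers. Replicates of a group differed beyond sampling noise. Benjamini-Hochberg adjustment ran over all genes or transcripts tested. Scripts were tested on simulated data. Intervals and floors cover counting or fit error only. The members and lists were chosen with earlier results of these data known. Named genes were the members, transcripts with at least 5% of reads in a group, at most 3 called genes per list and comparison, 3 most similar genes per member, and Irf9, Socs1, Socs2, Socs3, Cish and Jak2.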

Additional observations from a re-analysis of the deposited data

How the results depend on the processing

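The count of members called stayed at 4, 0 and 4 (IFNg versus Ctr, Dexa versus Ctr, IFNg versus Dexa) under DESeq2 with no replicate block, with TMM factors, with no count filter and with 12 libraries, and under edgeR with and without the replicate block. Leaving out each library in turn gave 4, 0 and 3 to 4. The log2 fold changes in IFNg versus Ctr then ranged from 3.24 to 3.35 for Stat2, 1.75 to 1.83 for Stat3, 0.82 to 1.14 for Stat5a, 0.36 to 0.43 for Stat5b and 0.03 to 0.35 for Stat6. Uncalled values near 0 changed sign, for causes that were not tested. In Dexa versus Ctr, Stat2 was -0.047 (DESeq2) and -0.048 (edgeR) with no replicate block, and Stat5a was 0.026 with 12 libraries, and in IFNg versus Dexa, Stat6 was -0.10 with 12 libraries. With single libraries left out, Dexa versus Ctr values ran from -0.086 to 0.082 for Stat2, -0.22 to 0.15 for Stat5a and -0.13 to 0.30 for Stat6, and Stat6 ran from -0.12 to 0.35 in IFNg versus Dexa.

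The number of all genes called moved more. With no replicate block it was 2302, 98 and 2345 for the 3 comparisons by DESeq2 and 1513, 22 and 1571 by edgeR, against 5238, 460 and 5662 with it in DESeq2. edgeR with the block called 282 in Dexa versus Ctr. With 12 libraries, over fewer genes, 1976, 227 and 2343 were called. Leaving out single libraries gave 189 (without Dexa replicate 2) to 546 in Dexa versus Ctr, with 301, 263 and 276 without Ctr replicates 1, 2 and 4 and 224 without Dexa replicate 1. It gave 3721 (without Dexa replicate 2) to 5230.0 in IFNg versus Dexa and 3722 to 5006 in IFNg versus Ctr.

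Transcript usage had 0 member calls under no replicate block, 12 libraries, a minimum of 50 counts and each library left out. A 70% limit on coding length left the full-length shares of reads as they were, since no member has a transcript between the limits. As shares of TPM, which give short transcripts more weight, the full-length shares in Ctr, Dexa and IFNg were 67.6%, 63.1% and 63.7% for Stat2, 81.7%, 77.1% and 82.5% for Stat3, 92.9%, 82.0% and 84.6% for Stat5a, 92.5%, 91.3% and 90.1% for Stat5b, and 67.1%, 47.1% and 82.5% for Stat6. The order of levels was the same per kilobase of effective length. Depth limits Stat4, Stat6 and the forms of Stat5a most. No library stood apart from its group by Dixon's ratio in the 15 groups of member values checked.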
